A study of Homo sapiens with 4 samples.

Results

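The type I interferon response genes measured here are 49 genes whose transcription is known to be raised by interferon alpha and beta, taken from a list of symbols. All 49 were found, 1 identifier each, among the 58884 Ensembl genes of the authors' table. They were measured by RNA sequencing of total RNA in human thyroid cancer cell lines: FTC-133, from a follicular carcinoma, and 8505C, from an anaplastic one. Cells of both lines had been transfected either with empty vector or with a construct that overexpresses CRABP1, a cytoplasmic protein that binds and carries retinoic acid. The 4 groups, FTC-133 with empty vector, FTC-133 with CRABP1, 8505C with empty vector and 8505C with CRABP1, held 1 library each. The comparison asks how CRABP1 overexpression affects transcript levels in these cells. No interferon or other agent is named in the labels, and they do not say whether the transfected cells were clones, pools or transient transfectants, nor when RNA was taken after transfection.

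Interferons alpha and beta bind the receptor IFNAR1/IFNAR2, which activates the kinases JAK1 and TYK2. These phosphorylate STAT proteins, among them STAT2, which joins IRF9 in the complex ISGF3. ISGF3 binds the interferon-stimulated response element (ISRE), a motif built around repeats of GAAA, and raises the transcription of antiviral effectors, RNA sensors and the pathway's own factors. Many tumour cell lines show some of these transcripts without added interferon.

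Levels are TPM, that is, read numbers corrected for gene length and set to the same total of 1000000 in every library. The reads behind them, recovered from the TPM steps, came to 20331470 and 20309255 in FTC-133 with vector and CRABP1 and to 19174558 and 19304254 in 8505C. CRABP1 itself was at 0 TPM in both vector libraries, where 3 reads would give 0.555 and 0.594 TPM, and at 385 and 537 TPM in the FTC-133 and 8505C libraries of the overexpressing cells. Mitochondrially encoded genes held 25.9% to 28.6% of the TPM. The thyroid genes TG and TSHR were under 1 TPM in all 4 libraries. PAX8 was at 100.1 and 143 TPM in FTC-133 but under 1 TPM in both 8505C libraries, and NKX2-1 was at 44.7 and 17.7 TPM in FTC-133 and at 117.9 and 113.5 TPM in 8505C. FOXE1 was at 8.07 and 15.2 TPM in FTC-133 and under 1 TPM in 8505C.

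With CRABP1, 48 of the 49 genes were higher in FTC-133 than with vector, and 17 of them by 2-fold or more on the log2(TPM + 1) scale. None was lower by 2-fold. Over all features with a mean of at least 1 TPM, 57.8% were above a log2 ratio of 0, 6.02% were higher by 2-fold and 4.92% lower. Restricted to protein-coding genes with 20 reads or more, the shares were 2.05% and 1.46%. The median log2 ratio of the 49 genes was 0.76, against 0.06 for all features. In 8505C, 44 genes reached a mean of 1 TPM; 15 were above a log2 ratio of 0 and 29 below it, where 54.7% of all features were above, and the median was -0.16, against 0.02 for all features. None of the 44 was higher by 2-fold and 1 was lower, GBP2; over all features of that line the shares were 3.69% and 4.07%, and over protein-coding genes with 20 reads 0.233% and 0.5%. With 1 library per group these are differences between libraries with no replicate check. In bulk RNA, more cells with a transcript and more transcript per cell cannot be told apart.

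**Figure D1:**
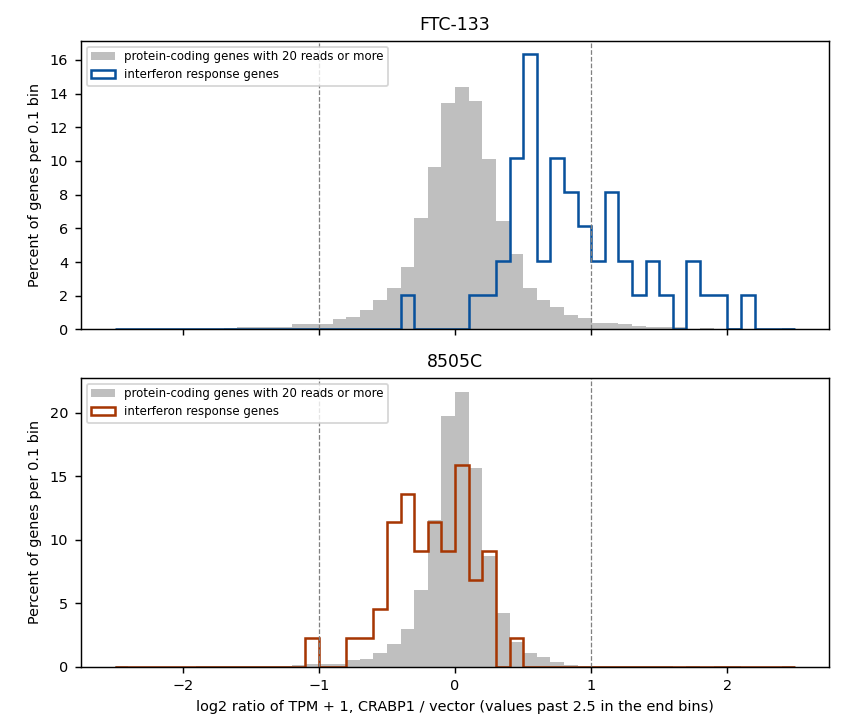
Percent of genes (vertical axis) per 0.1 bin of the log2 ratio of TPM + 1, CRABP1 library over vector library (horizontal axis), for FTC-133 above and 8505C below. Grey bars are protein-coding genes with at least 20 reads, outlines are the interferon response genes measured in that line (49 and 44), and dashed lines mark 2-fold. In FTC-133 the outline lies mostly to the right of the peak of the grey bars, with its median at 0.76, and in 8505C slightly to the left, with its median at -0.16.

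In FTC-133 the 95% Clopper-Pearson interval of the TPM ratio lay above 1 for 48 genes and below 1 for 1, DDX60, where 33.9% of protein-coding genes with 20 reads lay above and 22.0% below. With libraries scaled by the median ratio of all genes, or with mitochondrially encoded genes removed, IRF9 and SAMD9 no longer lay above 1, and the other 46 did. In 8505C the interval lay above 1 for 3 genes, IRF9, DDX58 and BST2, and below 1 for 22, where the shares over protein-coding genes were 23.3% and 16.1%. Since 48 of the 49 lay above 1 in FTC-133, these 22 were above 1 there and below 1 in 8505C, a pattern shown by 5.89% of protein-coding genes with 20 reads measured in both lines. They include STAT2, the 3 genes IFIT1, IFIT2 and IFIT3, OAS1, OAS2, MX1, the IFITM trio, PARP9, PARP14, DTX3L and both SAMD9 genes. Intervals here and below, given after each fold, cover counting error only.

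The promoters of genes with the highest ratios are shown because many of them carry the letters of an ISRE. RefSeq windows (GRCh38.p14) from 250 bases before to 50 after a gene's start were matched to 39 of the 49 genes by symbol. An ISRE-like motif, a pair of GAAA with any 2 bases between them, was searched on both strands (a pair of TTTC on the other). It was found in 27 of the 39, or 69.2%, against 4.38% of the 27305 genes with a window and 3.57% of all 35116 windows of that length. The palindromic motif TTCNNNGAA, the core of the interferon gamma-activated site, was found in 12 of 39 (30.8%), against 9.38% of genes. The stretches below run from 200 bases before to 30 after the start, 5′ to 3′ on the gene's strand, with matches to the ISRE-like motif on either strand in capitals. The first 6 are the genes past 2-fold in FTC-133 with the highest ratios among the 10 that hold the motif, in descending order; DDX60 was added after its values were seen, as the 1 gene lower in FTC-133.
IFITM1: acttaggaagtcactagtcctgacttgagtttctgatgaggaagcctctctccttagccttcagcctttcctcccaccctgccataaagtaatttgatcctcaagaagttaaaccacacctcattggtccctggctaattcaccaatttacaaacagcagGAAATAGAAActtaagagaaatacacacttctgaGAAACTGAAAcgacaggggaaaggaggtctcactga
MX1: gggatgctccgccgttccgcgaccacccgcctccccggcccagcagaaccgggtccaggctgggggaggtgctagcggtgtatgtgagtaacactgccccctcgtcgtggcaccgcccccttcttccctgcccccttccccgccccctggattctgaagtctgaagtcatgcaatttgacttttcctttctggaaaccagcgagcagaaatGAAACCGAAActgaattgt
IFI6: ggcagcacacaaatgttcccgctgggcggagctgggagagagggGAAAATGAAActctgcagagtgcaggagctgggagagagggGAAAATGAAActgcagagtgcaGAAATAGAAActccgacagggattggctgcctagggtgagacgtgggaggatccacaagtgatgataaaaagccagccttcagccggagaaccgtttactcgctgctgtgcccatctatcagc
EPSTI1: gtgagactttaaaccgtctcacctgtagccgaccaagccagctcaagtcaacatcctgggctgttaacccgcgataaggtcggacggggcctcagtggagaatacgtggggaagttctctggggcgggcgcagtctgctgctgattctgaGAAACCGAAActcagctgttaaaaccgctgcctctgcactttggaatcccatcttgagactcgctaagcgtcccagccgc
ISG15: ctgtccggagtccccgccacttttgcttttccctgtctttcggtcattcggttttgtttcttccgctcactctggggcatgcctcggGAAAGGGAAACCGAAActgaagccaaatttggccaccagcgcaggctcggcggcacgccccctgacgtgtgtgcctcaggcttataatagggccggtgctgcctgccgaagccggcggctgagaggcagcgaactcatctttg
IFITM3: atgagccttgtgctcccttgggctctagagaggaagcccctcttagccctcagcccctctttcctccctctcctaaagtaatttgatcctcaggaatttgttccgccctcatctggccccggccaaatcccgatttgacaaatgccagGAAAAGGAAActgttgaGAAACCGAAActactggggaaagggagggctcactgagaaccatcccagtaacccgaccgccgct
DDX60: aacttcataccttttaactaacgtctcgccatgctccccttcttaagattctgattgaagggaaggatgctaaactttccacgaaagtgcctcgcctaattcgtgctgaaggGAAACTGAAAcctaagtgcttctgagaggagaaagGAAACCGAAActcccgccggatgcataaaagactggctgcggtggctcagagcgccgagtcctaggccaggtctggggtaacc
The stretches lie at chr11:313840-314069 (plus strand) for IFITM1, chr21:41420358-41420587 (plus strand) for MX1, chr1:27672163-27672392 (minus strand) for IFI6, chr13:42992212-42992441 (minus strand) for EPSTI1, chr1:1013297-1013526 (plus strand) for ISG15, chr11:320831-321060 (minus strand) for IFITM3 and chr4:168318723-168318952 (minus strand) for DDX60. Matches begin 40 and 6 bases before the start of IFITM1 and 52 and 35 bases before that of IFITM3. In IFI6 there are 3, beginning 156, 115 and 93 bases before the start, and in ISG15 a pair that overlaps, at 113 and 107. The match of EPSTI1 begins 50 bases before the start, that of MX1 11 bases after it, and those of DDX60 88 and 53 before it.

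Genes with and without the motif had close medians in FTC-133. The 27 genes with the ISRE-like motif had a median log2 ratio of 0.81, with 10 past 2-fold, and the 12 with a window but no match had a median of 0.82, with 4 past 2-fold. The 10 genes not matched to a window had a median of 0.59. In 8505C the medians were -0.15, -0.08 and -0.26. A match describes letters in this window and is not evidence of binding. DDX60, which holds 2 matches, was lower in FTC-133.

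**Figure D2:**
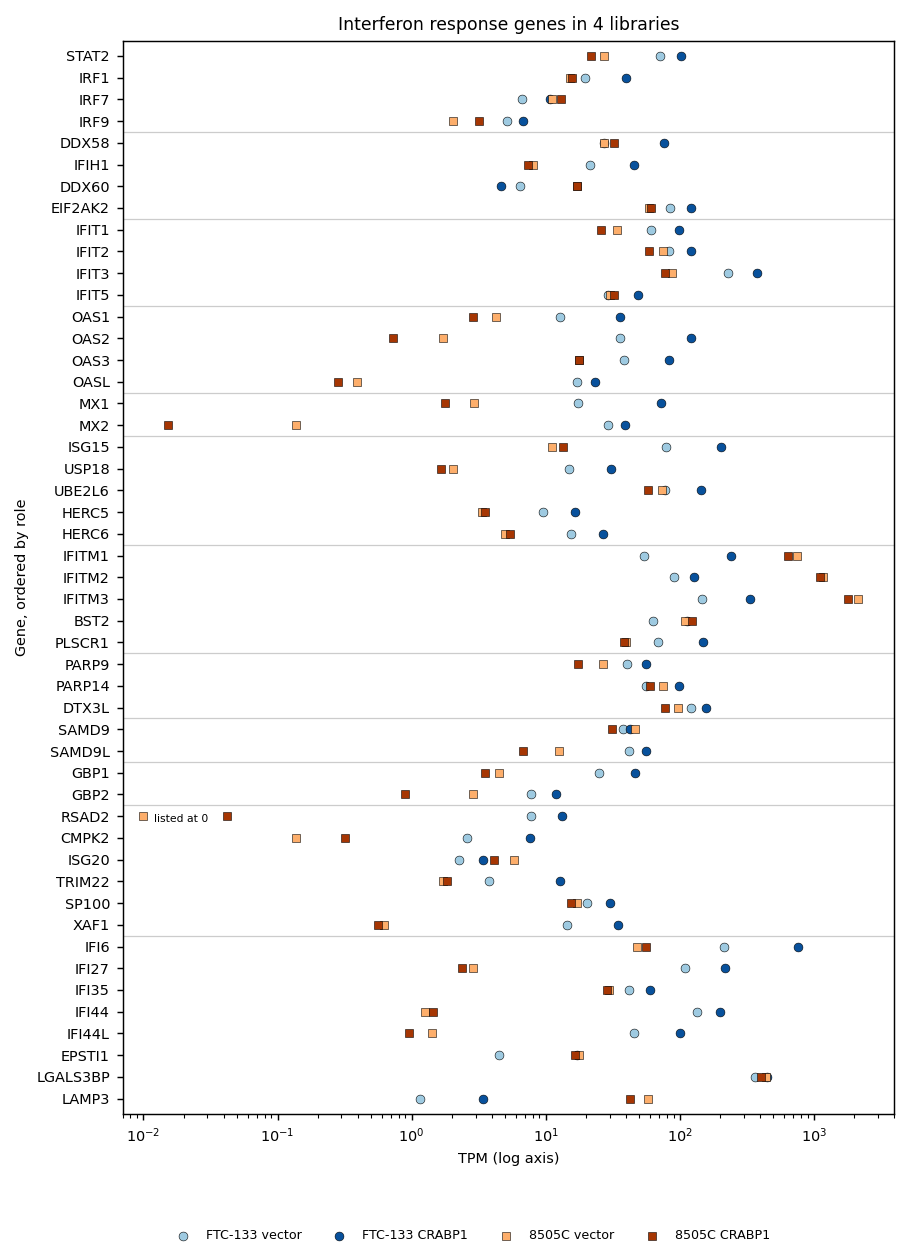
TPM (horizontal log axis) of each of the 49 genes, ordered by role and separated by grey lines, in the 4 libraries: circles for FTC-133, squares for 8505C, pale for vector and dark for CRABP1. Dark circles lie right of pale ones for every gene but DDX60, while the squares of the IFITM trio lie far right of the circles and those of IFI44, MX2 and RSAD2 far left.

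The transcription factors of the pathway were higher in FTC-133 with CRABP1 but none passed 2-fold; their 4 log2 ratios ran from 0.35 to 0.97. STAT2, the ISGF3 subunit that carries the activation domain, was at 71.9 and 102 TPM in FTC-133 with vector and CRABP1 (1.42-fold higher, 1.35 to 1.498) and at 27.2 and 21.9 TPM in 8505C (1.24-fold lower, 1.12 to 1.38). IRF1, which also drives interferon gamma targets, was at 19.8 and 39.6 TPM in FTC-133 (2.00-fold higher, 1.84 to 2.18) and 15.2 and 15.7 TPM in 8505C. IRF7, which is known to amplify interferon production, was at 6.64 and 10.8 TPM and 11.1 and 13.1 TPM, and IRF9, the DNA-binding subunit of ISGF3, at 5.13 and 6.79 TPM and 2.02 and 3.17 TPM. IRF9 was 1 of 3 genes whose interval lay above 1 in both lines (1.32-fold higher, 1.02 to 1.72 in FTC-133 and 1.57-fold higher, 1.03 to 2.41 in 8505C). Of the 50-base runs of the IRF9 exons, 43.6% also occur in other genes, mainly in the overlapping model AL136295.5, so its reads are uncertain.

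Among the cytosolic RNA sensors, DDX58 and IFIH1 passed 2-fold in FTC-133. DDX58, which encodes RIG-I (ENSG00000107201; GRCh38, GENCODE 29, chromosome 9, 32455705 to 32526324, minus strand), a helicase that detects short viral RNA, was at 27.4 and 77.0 TPM in FTC-133 (2.81-fold higher, 2.56 to 3.08) and 27.1 and 32.5 TPM in 8505C (1.20-fold higher, 1.07 to 1.34). It was among the 3 genes above 1 in both lines. IFIH1, which encodes MDA5, the sensor of long double-stranded RNA, was at 21.6 and 45.5 TPM in FTC-133 (2.11-fold higher, 1.91 to 2.33) and 7.997 and 7.33 TPM in 8505C. EIF2AK2, the kinase PKR that blocks translation on binding double-stranded RNA, was at 84.3 and 121 TPM in FTC-133 (1.44-fold higher, 1.38 to 1.49) and 58.8 and 61.4 TPM in 8505C. DDX60, a helicase of the same response, was at 6.43 and 4.66 TPM in FTC-133 (1.38-fold lower, 1.12 to 1.69) and at 17.1 and 17.1 TPM in 8505C. It was the only gene of the 49 with a ratio below 1 in FTC-133, and its level in 8505C did not differ beyond counting error.

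The IFIT family, which binds viral RNA and blocks its translation, had log2 ratios in a narrow range in FTC-133, from 0.54 to 0.72. IFIT3, the most abundant of the 4 in both lines, was at 229 and 378 TPM in FTC-133 (1.65-fold higher, 1.58 to 1.73) and 87.9 and 77.4 TPM in 8505C (1.14-fold lower, 1.04 to 1.24). IFIT1 and IFIT2 were 1.62-fold higher (1.51 to 1.73) and 1.46-fold higher (1.38 to 1.55) in FTC-133, but 1.33-fold lower (1.20 to 1.48) and 1.26-fold lower (1.17 to 1.36) in 8505C. IFIT5 was 1.67-fold higher (1.51 to 1.85) in FTC-133, and its interval in 8505C included 1. The 4 genes stand side by side on chromosome 10 from 89283694 to 89421001, all on the plus strand.

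The OAS family, enzymes whose linked oligoadenylate products activate the ribonuclease RNase L, had the highest median of the role groups in FTC-133, at 1.26, and 3 of its 4 genes passed 2-fold. OAS2 (ENSG00000111335; GRCh38, chromosome 12, 112978395 to 113011723, plus strand) was at 35.9 and 122 TPM in FTC-133 (3.40-fold higher, 3.19 to 3.63) and 1.73 and 0.724 TPM in 8505C (2.38-fold lower, 1.44 to 4.07). OAS1 was at 12.9 and 35.9 TPM (2.79-fold higher, 2.46 to 3.17) and 4.30 and 2.87 TPM (1.495-fold lower, 1.10 to 2.04). Both genes were thus higher with CRABP1 in 1 line and lower in the other, from far lower levels in 8505C. OAS3 was at 38.4 and 84.0 TPM in FTC-133 (2.19-fold higher, 2.06 to 2.31) and 17.6 and 17.8 TPM in 8505C. OASL, which lacks the synthetase activity, was at 17.1 and 23.3 TPM in FTC-133 (1.36-fold higher, 1.18 to 1.58) and under 1 TPM in 8505C, at 0.391 and 0.280 TPM.

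The MX GTPases, which trap viral nucleoproteins and capsids, differed from each other. MX1 (ENSG00000157601; GRCh38, chromosome 21, 41420304 to 41459214, plus strand) was at 17.6 and 72.2 TPM in FTC-133 (4.11-fold higher, 3.81 to 4.45), the second highest ratio of the 49. In 8505C it was at 2.90 and 1.78 TPM (1.62-fold lower, 1.22 to 2.18). MX2, its neighbour on chromosome 21, was at 28.98 and 38.9 TPM in FTC-133 (1.34-fold higher, 1.27 to 1.42). In 8505C MX2 rested on 9 reads with vector and 1 with CRABP1, or 0.136 and 0.0152 TPM.

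The ISG15 system, which attaches the ubiquitin-like protein ISG15 to other proteins, was higher throughout in FTC-133, with log2 ratios from 0.72 to 1.35. ISG15 itself (ENSG00000187608; GRCh38, chromosome 1, 1001138 to 1014540, plus strand) was at 79.2 and 204 TPM in FTC-133 (2.57-fold higher, 2.29 to 2.89) and 11.1 and 13.4 TPM in 8505C, where the interval included 1. The conjugating enzyme UBE2L6 was at 77.8 and 144 TPM in FTC-133 (1.85-fold higher, 1.71 to 2.00) and 74.2 and 57.7 TPM in 8505C (1.29-fold lower, 1.16 to 1.43). USP18, which removes ISG15 and dampens IFNAR2 signalling, was at 14.9 and 30.6 TPM in FTC-133 (2.05-fold higher, 1.70 to 2.48) and 2.03 and 1.67 TPM in 8505C. On the log2(TPM + 1) scale it fell short of 2-fold, which it passed with a pseudocount of 0.1 TPM, and 23.4% of its 50-base runs occur in other genes, USP41 first. The ligases HERC5 and HERC6 were 1.72-fold higher (1.46 to 2.02) and 1.73-fold higher (1.55 to 1.94) in FTC-133, and both intervals included 1 in 8505C.

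Genes for membrane proteins that block viral entry or release included the most abundant transcripts of the set in 8505C, those of the IFITM trio. IFITM1 (ENSG00000185885; GRCh38, chromosome 11, 313506 to 315272, plus strand), IFITM2 and IFITM3 encode small proteins that hinder fusion of viral and cell membranes. IFITM1 had the highest ratio of the 49 in FTC-133, at 54.5 and 241 TPM (4.42-fold higher, 3.91 to 5.002), and was at 756 and 645 TPM in 8505C (1.17-fold lower, 1.12 to 1.23). IFITM3 was at 147 and 333 TPM in FTC-133 (2.26-fold higher, 2.10 to 2.43) and 2153 and 1799 TPM in 8505C (1.20-fold lower, 1.17 to 1.23). IFITM2 was at 90.2 and 128 TPM in FTC-133 (1.42-fold higher, 1.29 to 1.56) and 1183 and 1108 TPM in 8505C (1.07-fold lower, 1.04 to 1.10). Even with CRABP1, each of the 3 stayed lower in FTC-133 than in either 8505C library. Between 17.4% and 34.1% of their 50-base runs occur in other genes, so reads may be split or shared among them. BST2, or tetherin, which holds budding virus at the cell surface, was at 62.7 and 113 TPM in FTC-133 (1.80-fold higher, 1.59 to 2.05) and 110.5 and 124 TPM in 8505C; its interval in 8505C just cleared 1 and included 1 after either rescaling. PLSCR1, a scramblase with antiviral activity, was at 68.7 and 151 TPM in FTC-133 (2.19-fold higher, 2.06 to 2.33) and 40.1 and 38.4 TPM in 8505C.

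PARP9, PARP14 and their partner DTX3L, which act in ADP-ribosylation and ubiquitin transfer, stand together on chromosome 3 and had ratios of opposite sign in the lines, from 0.38 to 0.81 on the log2 scale in FTC-133 and from -0.57 to -0.30 in 8505C. DTX3L, the most abundant, was at 122 and 158 TPM in FTC-133 (1.30-fold higher, 1.25 to 1.35) and 96.7 and 78.2 TPM in 8505C (1.24-fold lower, 1.17 to 1.30). PARP14 was 1.77-fold higher (1.69 to 1.85) in FTC-133 and 1.25-fold lower (1.19 to 1.31) in 8505C. PARP9 was 1.39-fold higher (1.31 to 1.48) in FTC-133 and had the lowest ratio of the 3 in 8505C, at 26.6 and 17.5 TPM (1.52-fold lower, 1.39 to 1.66). SAMD9 and SAMD9L, restriction factors of poxviruses, had the lowest median of the role groups in FTC-133, 0.28, from log2 ratios of 0.15 and 0.40. Both were lower in 8505C, SAMD9 at 46.8 and 31.4 TPM (1.49-fold lower, 1.38 to 1.61) and SAMD9L at 12.5 and 6.81 TPM (1.84-fold lower, 1.57 to 2.16).

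The guanylate-binding proteins GBP1 and GBP2, GTPases that attack intracellular pathogens and respond strongly to interferon gamma, did not pass 2-fold in FTC-133. GBP1 was at 25.1 and 46.3 TPM there (1.85-fold higher, 1.68 to 2.04) and 4.53 and 3.53 TPM in 8505C. GBP2 (ENSG00000162645; GRCh38, chromosome 1, 89106132 to 89150456, minus strand) was at 7.81 and 11.9 TPM in FTC-133 (1.53-fold higher, 1.30 to 1.79) and 2.86 and 0.901 TPM in 8505C (3.17-fold lower, 2.04 to 4.93). In 8505C it rested on 91 and 29 reads, and it was the 1 gene past 2-fold there on the log2(TPM + 1) scale. A filter at a mean of 5 TPM left it out, and 10.2% of its 50-base runs occur in other genes, GBP7 first.

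Of 6 further effectors, 3 passed 2-fold in FTC-133. TRIM22, a ubiquitin ligase that restricts several viruses, was at 3.80 and 12.8 TPM in FTC-133 (3.36-fold higher, 2.74 to 4.13) and 1.72 and 1.82 TPM in 8505C. Of its 50-base runs, 12.1% occur in other genes, OR56B1 first. CMPK2, a mitochondrial nucleotide kinase next to RSAD2, was at 2.60 and 7.71 TPM in FTC-133 (2.96-fold higher, 2.20 to 4.03), and XAF1, an antagonist of the apoptosis inhibitor XIAP, at 14.4 and 34.8 TPM (2.42-fold higher, 2.18 to 2.68). Of the XAF1 exon bases, 38.3% overlap the gene PRAL on the other strand, and the strand setting is not known. The same holds for 22.0% of the IRF1 exon bases, with C5orf56, and 21.3% of those of IFITM3, with AC136475.5. RSAD2, or viperin, was at 7.82 and 13.4 TPM in FTC-133 (1.71-fold higher, 1.43 to 2.04). RSAD2, CMPK2 and XAF1 were all under 1 TPM in both 8505C libraries. The nuclease ISG20 and the nuclear body protein SP100 were 1.52-fold higher (1.17 to 2.03) and 1.48-fold higher (1.38 to 1.58) in FTC-133, and 1.402-fold lower (1.14 to 1.74) and 1.10-fold lower (1.01 to 1.20) in 8505C.

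The last 8 genes are grouped by name or have mixed functions, and 4 passed 2-fold in FTC-133. IFI6 (ENSG00000126709; GRCh38, chromosome 1, 27666061 to 27672218, minus strand), a membrane protein that limits flavivirus replication, was at 215 and 759 TPM in FTC-133 (3.54-fold higher, 3.29 to 3.79), and with CRABP1 it was the most abundant of the 49 in that line. In 8505C it was at 48.3 and 55.7 TPM, and the interval of its ratio included 1. EPSTI1, which was first described in epithelial cells grown with stroma, was at 4.51 and 17.2 TPM in FTC-133 (3.81-fold higher, 3.11 to 4.70) and 17.6 and 16.7 TPM in 8505C. With CRABP1 its FTC-133 level was thus near that of both 8505C libraries. IFI44L was at 45.8 and 100.3 TPM in FTC-133 (2.19-fold higher, 2.09 to 2.29) and 1.42 and 0.963 TPM in 8505C (1.48-fold lower, 1.02 to 2.16), while its neighbour IFI44 was at 135 and 198 TPM (1.47-fold higher, 1.38 to 1.57) and 1.25 and 1.45 TPM. LAMP3, a lysosomal membrane protein of mature dendritic cells, was at 1.17 and 3.40 TPM in FTC-133 (2.92-fold higher, 1.84 to 4.94) and 57.6 and 42.9 TPM in 8505C (1.34-fold lower, 1.23 to 1.47). LAMP3 and IFIH1 no longer passed 2-fold in FTC-133 with median-ratio scaling. IFI27 was at 109 and 218 TPM in FTC-133 (2.00-fold higher, 1.90 to 2.10) and 2.89 and 2.38 TPM in 8505C. LGALS3BP, a secreted galectin-binding glycoprotein, was the most abundant in FTC-133 with vector, at 364 and 445 TPM (1.22-fold higher, 1.19 to 1.26), and was at 439 and 404 TPM in 8505C (1.09-fold lower, 1.05 to 1.12). IFI35, which binds NMI, was 1.44-fold higher (1.27 to 1.62) in FTC-133, and its interval in 8505C included 1.

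**Figure D3:**
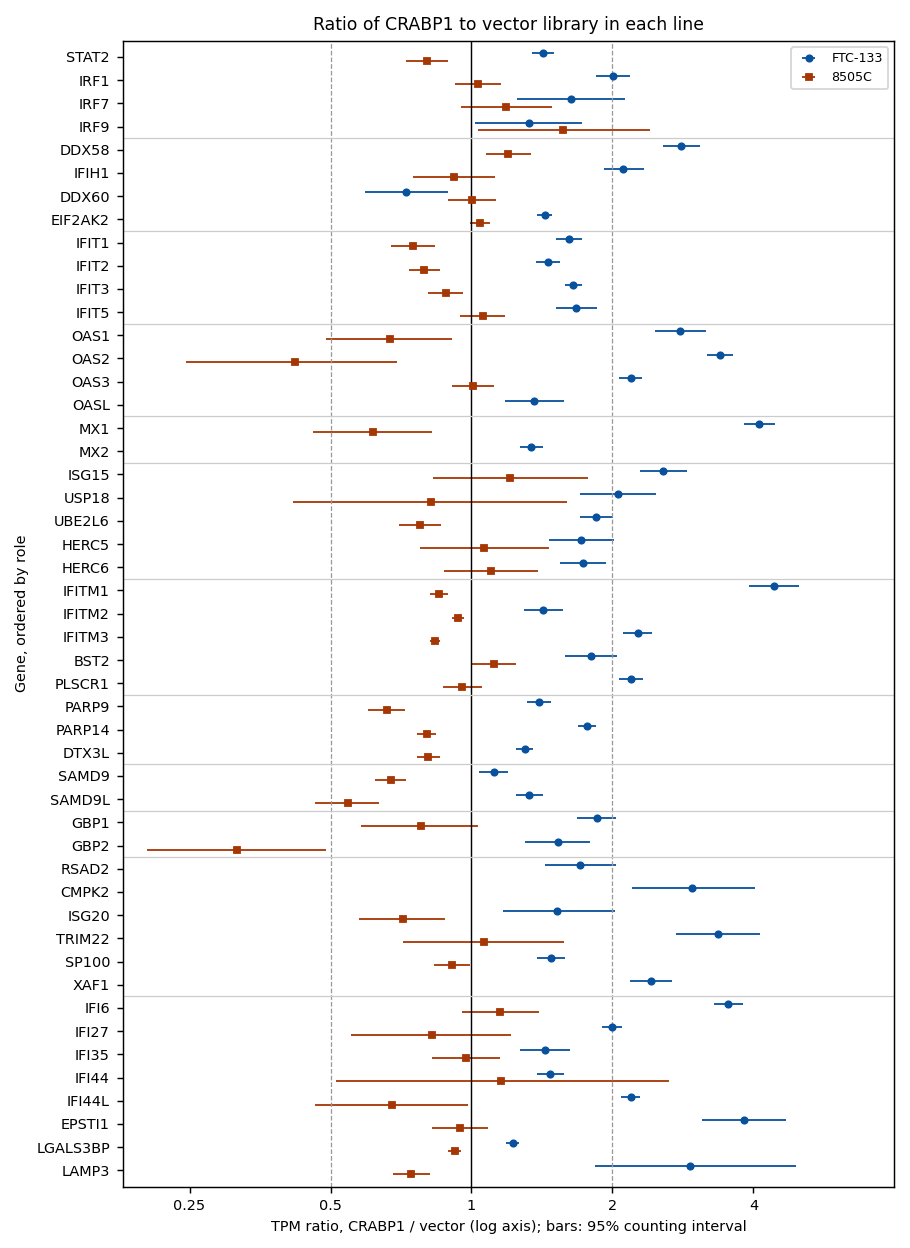
TPM ratio of the CRABP1 library to the vector library (horizontal log axis) for each gene, with its 95% counting interval as a bar; blue circles are FTC-133 and red squares 8505C, dashed lines mark 2-fold, and the 5 genes under a mean of 1 TPM in 8505C have no square. In FTC-133 all points but DDX60 lie right of 1, and in 8505C 22 bars lie wholly left of 1 and 3 wholly right of it.

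The set as a whole differed in level between the lines. The median gene of the 49 was at 35.9 TPM in FTC-133 with vector and 56.4 TPM with CRABP1, and at 17.1 and 15.7 TPM in 8505C. At least 1 TPM was reached by 49 genes in each FTC-133 library and by 44 and 41 in 8505C; at least 100 TPM was reached by 7 and 18 in FTC-133 and by 5 in each 8505C library. In FTC-133 the TPM of the 49 genes summed to 2715 with vector and 5192 with CRABP1, and in 8505C to 5647 and 4960, but the IFITM trio made up 4092 and 3552 of the 8505C sums. Without these 3 genes FTC-133 summed to 2423 with vector and 4489 with CRABP1, and 8505C to 1556 and 1408. IFITM3 ranked 27 among 19945 protein-coding genes in 8505C with vector, whereas in FTC-133 the highest rank with vector was 223, for LGALS3BP, and with CRABP1 83, for IFI6.

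With vector alone, 24 of the 49 genes were lower by 2-fold in 8505C than in FTC-133 and 7 were higher, with a median log2 ratio of -0.82. Over all features 21.6% were lower and 12.1% higher, with a median of -0.17, and over protein-coding genes with 20 reads 16.6% and 9.99%. After median-ratio scaling, which moved the median of all features to -0.03, 22 genes were lower and 7 higher, and the median of the 49 was -0.71. The 5 genes under 1 TPM in 8505C with vector entered only through FTC-133 and so had to be lower. On the log2(TPM + 1) scale the largest difference was that of IFI44 (ENSG00000137965; GRCh38, chromosome 1, 78649796 to 78664078, plus strand), which was 108-fold lower (62.7 to 203) in 8505C. IFI27 was 37.9-fold lower (29.4 to 49.6), and MX2 213-fold lower (112 to 468). RSAD2 had 0 reads in 8505C with vector, where 3 reads would give 0.122 TPM. Its level in FTC-133 with vector was 64.1 times that value, and the lower end of its counting interval was 51.7-fold. In the other direction LAMP3 was 49.5-fold higher (33.4 to 78.2) in 8505C, IFITM3 14.6-fold higher (13.8 to 15.6), IFITM1 13.8-fold higher (12.3 to 15.6) and IFITM2 13.1-fold higher (12.2 to 14.1). All 4 OAS genes, both MX genes and both GBP genes were lower by 2-fold in 8505C, against 0 of the 3 PARP and DTX3L genes.

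The lines were also compared over both transfections with limma on log2(TPM + 1), with transfection as a term and p-values adjusted by Benjamini-Hochberg over 19513 genes. The transfections of a line stand in for replicates, with 1 residual degree of freedom. At an adjusted p under 0.05, 28 of the 49 genes were lower in 8505C and 5 were higher, where 22.2% of all genes were lower and 13% higher. The 5 higher were IFITM1, IFITM2, IFITM3, LAMP3 and DDX60. Among the 28 lower were OASL, MX2, RSAD2, CMPK2 and XAF1, all under 1 TPM in both 8505C libraries. These entered the fit only through FTC-133 and so had to be lower. IFI44 had the lowest adjusted p in limma, 0.00336, with a log2 difference of -6.13 (SE 0.167). After median-ratio scaling 22 were lower and 5 higher, beside 3391 lower and 3226 higher genes in all. Without the filter on low values, 4 were lower and 1 was higher, beside 741 lower and 441 higher of 36025 genes in all. Without the trend 16 were lower and 4 higher, beside 3059 lower and 1530 higher of 19513 genes.

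For CRABP1 over both lines, with the line as a term, limma called 0 of the 49 genes, and 0 had an unadjusted p under 0.05; the lowest adjusted p among them was 0.92. Of all genes, 1 was higher (0.00512%) and 0 were lower (0%), with 923 of 19513 at an unadjusted p under 0.05. The lines are the only replicates in this fit, and the signs of their ratios differed: 29 of the 44 genes measured in both, namely all those below 0 in 8505C, were above a log2 ratio of 0 in FTC-133, where 25.9% of all features measured in both had these signs. The difference between the lines in the CRABP1 ratio has no residual degrees of freedom, so it was not tested.

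The ligands that start the response were near the limit of detection. Of 21 interferon genes listed, 15 had 0 reads in all 4 libraries. Beside IFNE, no interferon gene had more than 6 reads in any library. IFNB1 had 1 read in each FTC-133 library and 0 in 8505C, and IFNL1 had 2 and 4 reads in FTC-133 and 0 in 8505C. IFNE, an epithelial interferon whose expression does not depend on infection, was at 5.48 and 5.01 TPM in FTC-133 and 10.1 and 9.09 TPM in 8505C, and both intervals included 1. These counts describe RNA at harvest and not protein in the medium.

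Receptor and signalling transcripts were detected in both lines, and none of the 9 measured of 10 listed passed 2-fold in either; their medians were 0.26 in FTC-133 and -0.04 in 8505C. IFNAR1 was at 31.9 and 31.1 TPM in FTC-133 and 63.4 and 53.3 TPM in 8505C (1.19-fold lower, 1.11 to 1.27), and IFNAR2 at 2.03 and 1.44 TPM and 1.11 and 1.41 TPM. JAK1 was at 188 and 224 TPM and 143 and 147 TPM, and TYK2 at 30.2 and 36.4 TPM and 23.6 and 22.0 TPM. JAK2 was at 10.7 and 16.7 TPM in FTC-133 (1.57-fold higher, 1.37 to 1.80) and had the highest ratio of the list in 8505C, at 9.27 and 11.6 TPM (1.25-fold higher, 1.07 to 1.46). IFNLR1, the receptor chain for interferon lambda, was at 13.1 and 12.01 TPM in FTC-133 and 1.67 and 1.12 TPM in 8505C. The lowest ratio in FTC-133 was that of IFNAR2, and in 8505C that of IFNGR2, a chain of the interferon gamma receptor, at 54.0 and 41.9 TPM (1.29-fold lower, 1.16 to 1.43).

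Of 18 sensors and adaptors, 14 were measured in FTC-133 and 12 in 8505C, with medians of 0.21 and -0.06 and none past 2-fold on the log2(TPM + 1) scale. TLR3, the endosomal sensor of double-stranded RNA, was at 1.37 and 3.44 TPM in FTC-133 (2.52-fold higher, 1.80 to 3.57), and DHX58, the RIG-I relative LGP2, at 10.4 and 18.3 TPM (1.76-fold higher, 1.49 to 2.10), the highest ratios of the list. DHX58 was instead the lowest of the list in 8505C, at 4.06 and 2.58 TPM (1.57-fold lower, 1.09 to 2.29). MYD88, the adaptor of most Toll-like receptors, was at 16.8 and 12.8 TPM in FTC-133 (1.31-fold lower, 1.12 to 1.54) and 22.9 and 17.8 TPM in 8505C (1.29-fold lower, 1.12 to 1.48), and the DNA sensor AIM2 at 8.33 and 5.66 TPM in FTC-133 (1.47-fold lower, 1.05 to 2.07). The highest ratios in 8505C were those of the TLR3 adaptor TICAM1, at 18.1 and 20.6 TPM (1.14-fold higher, 0.955 to 1.36), and of the kinase IKBKE, at 8.50 and 9.05 TPM (1.06-fold higher, 0.855 to 1.32). CGAS, which detects cytosolic DNA, was at 14.1 and 14.9 TPM in FTC-133 and had 0 reads in both 8505C libraries, where 3 reads would give 0.142 TPM. STING1, its downstream adaptor, was at 26.6 and 25.8 TPM in FTC-133 and 56.8 and 52.1 TPM in 8505C. MAVS, the adaptor of RIG-I and MDA5, was at 42.4 and 51.5 TPM and 167 and 160.2 TPM, and the factor IRF3 at 39.5 and 43.6 TPM and 31.0 and 32.5 TPM.

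Of the few feedback inhibitors measured in a list outside the 49 genes, most had ratios below 0. USP18, a gene of the 49 that dampens IFNAR2 signalling, is not on that list. It was 2.05-fold higher (1.70 to 2.48) in FTC-133, and its interval in 8505C included 1. SOCS1, which blocks JAK kinases, was at 2.04 and 0.633 TPM in FTC-133 (3.23-fold lower, 1.25 to 9.83), from 20 and 6 reads. In 8505C it was at 1.42 and 0.1098 TPM, from 13 and 1 reads. SOCS3 was at 31.4 and 18.1 TPM in FTC-133 (1.74-fold lower, 1.49 to 2.03) and 45.0 and 28.6 TPM in 8505C (1.57-fold lower, 1.38 to 1.79). In FTC-133 the 4 measured inhibitors of 5 listed had a median of -0.44, with 3 below 0, where 57.8% of all features were above 0. In 8505C 3 were measured and all were below 0, where 54.7% of all features were above. The phosphatase PTPN2 was at 16.2 and 20.2 TPM in FTC-133 (1.247-fold higher, 1.13 to 1.37) and 13.2 and 10.97 TPM in 8505C (1.205-fold lower, 1.07 to 1.36). The SUMO ligase PIAS1 was at 19.1 and 17.6 TPM in FTC-133, where its interval included 1. In 8505C it was at 19.2 and 16.9 TPM (1.14-fold lower, 1.04 to 1.24).

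A list of 55 further interferon-stimulated genes, none of them among the 49, was counted in the same way. In FTC-133, 53 were measured, of which 48 were above 0, 3 higher by 2-fold and 0 lower, with a median of 0.38; over all features of that line 57.8% were above 0, 6.02% higher by 2-fold and 4.92% lower. In 8505C, 46 were measured, of which 13 were above 0, 0 higher by 2-fold and 1 lower, with a median of -0.08; over all features the shares were 54.7%, 3.69% and 4.07%. The counts past 2-fold were thus near or below the shares of all features in both lines. Protein-coding genes with 20 reads passed 2-fold less often. For FTC-133, 2.05% of them passed it upward and 1.46% downward. The 8505C shares were 0.233% upward and 0.5% downward. Only beside these smaller shares, added after seeing the data, did the 3 of 53 genes higher in FTC-133 stand above the background. So did the 1 of 46 lower in 8505C, but both counts rest on very few genes. The list itself was not filtered by reads. The highest ratios in FTC-133 were those of CASP1, the caspase that matures interleukin 1 beta, at 4.42 and 19.0 TPM (4.29-fold higher, 3.40 to 5.47), and GBP4, at 1.85 and 9.01 TPM (4.86-fold higher, 3.67 to 6.48). LY6E, the other gene past 2-fold, was at 43.5 and 92.1 TPM (2.12-fold higher, 1.92 to 2.33). The lowest in FTC-133 were the antiviral zinc finger gene ZC3HAV1, at 79.4 and 67.4 TPM (1.18-fold lower, 1.12 to 1.24), and SLFN11, at 66.1 and 56.4 TPM (1.17-fold lower, 1.10 to 1.25). In 8505C the gene past 2-fold was TNFSF10, which encodes the death ligand TRAIL, at 13.5 and 4.76 TPM (2.85-fold lower, 2.20 to 3.68), and the highest ratio was that of the checkpoint ligand gene CD274, at 97.4 and 135 TPM (1.38-fold higher, 1.31 to 1.47). Next to them stood the transcription factor gene BATF2, at 8.24 and 6.23 TPM (1.32-fold lower, 0.994 to 1.75), and the apolipoprotein gene APOL6, at 28.6 and 34.1 TPM (1.19-fold higher, 1.11 to 1.28). The chemokine genes CXCL10 and CXCL11 were at 0.782 and 2.26 TPM and 2.70 and 3.48 TPM in FTC-133 and had 0 reads in 8505C, where 3 reads would give 0.502 and 0.309 TPM with vector.

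**Figure D4:**
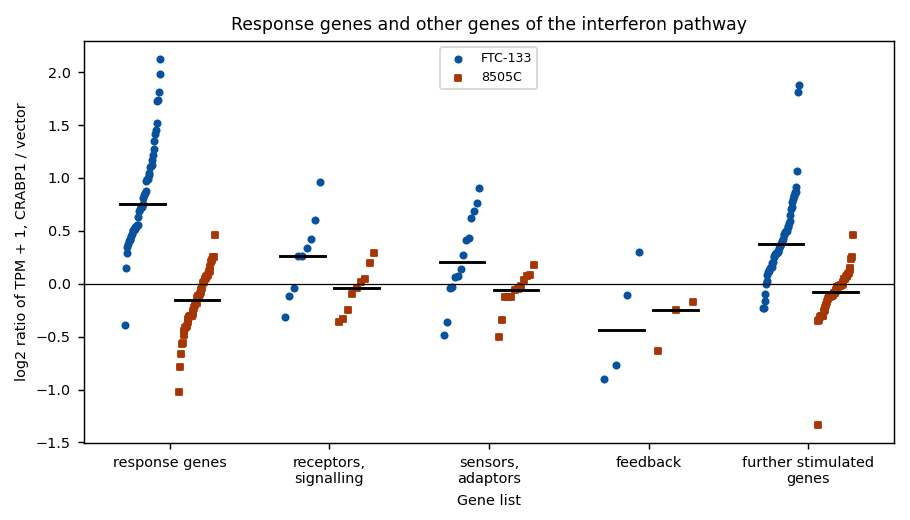
Log2 ratio of TPM + 1, CRABP1 library over vector library (vertical axis), for measured genes of the response set and 4 lists of other pathway genes; blue circles are FTC-133, red squares 8505C, and black bars list medians. The medians in FTC-133 are 0.76, 0.26, 0.21, -0.44 and 0.38 from left to right, and those in 8505C lie between -0.25 and -0.04.

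Many of the genes are neighbours: 26 of the 49 fall into 10 groups on 1 chromosome with gaps of at most 500 kb. In the group OAS1, OAS3 and OAS2 on chromosome 12 (112906777 to 113011723) all 3 log2 ratios in FTC-133 were between 1.11 and 1.74. In contrast, the group of IFITM2, IFITM1, IFITM3 and IRF7 on chromosome 11 spanned 0.51 to 2.12, and MX2 and MX1 on chromosome 21 had ratios of 0.41 and 1.98. In 8505C the SAMD9 pair on chromosome 7, with ratios of -0.56 and -0.79, and the pair GBP1 and GBP2 on chromosome 1, with -0.29 and -1.02, had the lowest values of any group.

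Several of these genes are also strongly expressed in immune cells. The 10 leukocyte markers summed to 1.17 and 1.20 TPM in FTC-133 with vector and CRABP1, none of them reached 1 TPM, and CD3E, CD3D, MS4A1, LYZ and ITGAM were at 0. In 8505C they summed to 56.8 and 28.9 TPM, of which CD14 made up 56.5 and 28.6 TPM, and CD3D, MS4A1, LYZ, CD68 and NKG7 were at 0 in both libraries. The plasmacytoid dendritic markers CLEC4C and LILRA4 were at 0 in all 4 libraries. IL3RA, the other marker of that list, was at 3.33 and 2.44 TPM in FTC-133 and 2.64 and 2.42 TPM in 8505C. The 5 fibroblast markers summed to 646 and 385.3 TPM in FTC-133, and to 6.93 and 12.4 TPM in 8505C. In FTC-133 the collagen genes COL1A1, at 387.9 and 174.5 TPM, and COL1A2, at 212.9 and 155.6 TPM, carried the sum, while PDGFRB was at 9.602 and 18.5 TPM, LUM at 35.35 and 36.4 TPM and DCN under 1 TPM. The 5 epithelial markers summed to 342.8 and 378.6 TPM in FTC-133 and to 2207 and 1833 TPM in 8505C. KRT7, KRT8 and KRT18 carried the 8505C sum. EPCAM, at 6.1 and 5.9 TPM in FTC-133, and KRT19, at 1.49 and 1.54 TPM, were under 1 TPM in 8505C. The 4 endothelial markers summed to 4.61 and 5.02 TPM in FTC-133 and to 107.6 and 100.3 TPM in 8505C, where CDH5 made up 103.0 and 97.9 TPM. PECAM1 was also higher in 8505C, while VWF and KDR were lower there than in FTC-133. The part of the differences in NKX2-1, collagen genes, PDGFRB and CD14 in the interferon results was not tested.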

How the data were processed

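RNA was measured in 4 libraries, 1 per group, each assigned to its group by cell line and transfection in the labels and by column name. The authors deposited TPM values for 58884 Ensembl genes in 1 table, with a sum of 1000000 in every column. The submitters' processing notes name FastQC, Trimmomatic 0.38, featureCounts 2.0.0 and GRCh38. Which aligner, annotation and strand setting were used is not given in the sources used here, so reads of overlapping antisense genes cannot be told apart.

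Reads were recovered by multiplying TPM by the GENCODE 29 union exon length, which was known for 58611 identifiers. Of the values up to 50 reads, 90.5% to 91.6% per library fell within 0.02 of a whole number. Of all values above 0, 74.1% to 75.8% did. These reads gave 95% Clopper-Pearson intervals of the ratio of 2 libraries, filters and floors of 3 reads, which cover counting error only. Since such whole numbers rest on an assumed annotation, no count test was run.

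Ratios were log2(TPM + 1), which understates the ratio of low genes, restricted to genes whose mean was 1 TPM or more in the pair compared. Folds with an interval are plain TPM ratios. With 1 library per group, a 2-fold rule served for counts, and a line on its own has no p-value. Over both lines, all genes were fitted in limma (trend) on cell line and transfection. Its two-sided p-values were adjusted by Benjamini-Hochberg at 0.05 and measure only the spread between these libraries. Separate cultures are not stated in the labels.

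The members and lists were chosen with earlier results of these data known. Values were written out for members past 2-fold in either line, the 6 highest in mean TPM, the 6 with the largest difference of ratios between the lines and the 6 with the largest vector difference; other members follow by role. Some genes of the pathway and marker lists are not reported here. Pathway genes named were set beforehand or had the 2 highest or lowest ratios of a list, and LY6E was added after its value was seen. Alternatives were a pseudocount of 0.1 TPM, no filter, a mean of 5 TPM, median-ratio scaling, removal of mitochondrially encoded genes, a 1.5-fold rule, means for medians, no trend and no term for the other factor. The protein-coding background and the rescaled intervals were added after seeing the data. Python 3.11.15, pandas 2.3.3, NumPy 2.4.6, SciPy 1.17.1, matplotlib 3.10.9, R 4.3.3 and limma 3.58.1 were used.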

Additional observations from a re-analysis of the deposited data

Results flagged for a closer look

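For 22 of the 44 genes measured in both lines, the counting interval of the CRABP1 ratio lay above 1 in FTC-133 and below 1 in 8505C, where 5.89% of protein-coding genes with 20 reads measured in both lines did so. As 48 of the 49 lay above 1 in FTC-133, the count follows that of the 22 genes below 1 in 8505C. With 1 library per group the difference between the lines was not tested. The difference of the log2 ratios, FTC-133 minus 8505C, was 2.46 for MX1, 2.40 for OAS2 and 2.35 for IFITM1. OAS1 differed by 1.86, GBP2 by 1.58, LAMP3 by 1.44, IFITM3 by 1.43, IFI44L by 1.42, UBE2L6 by 1.24, SAMD9L by 1.19, PARP14 by 1.12, IFIT1 by 1.08 and PARP9 by 1.04. The other 9 were IFIT3 at 0.90, IFIT2 at 0.87, ISG20 at 0.85, STAT2 at 0.80, SAMD9 at 0.71, DTX3L at 0.68, SP100 at 0.67, IFITM2 at 0.60 and LGALS3BP at 0.41. The medians of all genes measured in each line, 0.76 and -0.16, differed by 0.91. Among the 22, GBP2, OAS1, OAS2, MX1 and IFI44L were under 5 TPM in both 8505C libraries. With median-ratio scaling, or with mitochondrially encoded genes removed, the interval of SAMD9 in FTC-133 no longer lay above 1.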

How the results depend on the processing

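The labels give no replicate numbers to pair libraries by; the limma fit for CRABP1 has the cell line as its term. Leaving out a library leaves no residual degree of freedom, so that was not run. In FTC-133, 15 to 18 of the 49 genes were higher by 2-fold under every other pseudocount, filter and scaling tried, and 31 were higher by 1.5-fold. The median log2 ratio ranged from 0.69 to 0.79 and the mean was 0.87. In 8505C, 2 genes, GBP2 and OAS2, were lower by 2-fold with a pseudocount of 0.1 TPM, and 0 with a mean of at least 5 TPM. By 1.5-fold 3 were lower, and the median ranged from -0.18 to -0.11. Shares of all features past 2-fold were counted with the main setting only. The counts under other settings in each line thus have no like share beside them. Between the lines, limma called 1 higher and 4 lower without a filter, beside 441 higher and 741 lower of 36025 genes in all. Without the trend it called 16 lower, beside 3059 of 19513 genes. For CRABP1, limma called 0 of the 49 under all alternatives. In 8505C the ratio of DDX60, 0.004192, changed sign to -0.0163 with median-ratio scaling and to -0.004991 without mitochondrially encoded genes, and that of OAS3, 0.01164, to -0.008865 with median-ratio scaling; the intervals of both included 1. No other single CRABP1 ratio changed sign under an alternative that gave it a value. In 8505C few reads lay behind the low genes: OASL, MX2, RSAD2, CMPK2 and XAF1 were under a mean of 1 TPM, with 0 to 21 reads.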
